A study of Microtus ochrogaster with 46 samples.

Results

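The genes described here are those whose level in the nucleus accumbens of female prairie voles (Microtus ochrogaster) was highest, or lowest, 24 h after the animals were placed with a male, while the mean level in males differed little between naive animals and animals paired for 24 h. They were chosen by measured values. Of the 17479 genes in the table, 12296 had a mean normalized count of at least 50, 6198 of those had a male 24 h difference under 0.1 on the log2 scale, and 5988 of those also had a correlation with the vasopressin receptor gene Avpr1a under 0.7 in size across females, with group means removed. From these 5988, the 75 genes with the largest excess at 24 h over both other female groups make up the higher list, and the 75 with the largest deficit make up the lower list. The ranking used the smaller of the 2 differences, 24 h against naive and 24 h against 3 weeks. The lists hold 150 genes and share 0.

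The study measured RNA by sequencing poly(A)-selected, unstranded libraries from tissue punches of the nucleus accumbens, 1 library per titled animal, 46 in all. Sexually naive animals (10 females, 6 males) match in number the animals kept for 3 weeks together with a littermate of the same sex, per the series description. All others were housed with a partner of the other sex, for 24 h (10 females, 6 males) or for 3 weeks (9 females by their titles, although the description gives 6; 5 males). The labels give no genotype, age, litter or batch, and do not say whether a paired animal had formed a bond.

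Mated prairie voles stay together as bonded pairs, and the nucleus accumbens, a ventral part of the striatum that receives dopamine from the midbrain, is one of the regions in which those bonds are known to form. Dopamine and oxytocin receptors there are known to act in bond formation, and Avpr1a, which encodes the vasopressin V1a receptor, is known for its part in social behaviour of this species. Most neurons of the region are medium spiny neurons, and astrocytes, oligodendrocytes, microglia and vessel cells also contribute RNA to a punch. In such bulk samples fewer cells of a type and less RNA per cell cannot be told apart.

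The table names every gene but Avpr1a by an identifier alone, and the reference table used here matched 0 of 17478 identifiers. No member could therefore be given a symbol, a function or a sequence, and the label of the tissue could not be checked against cell type markers. Estimated depth ran from 15.3 M to 37.8 M reads per library, with a median of 29.2 M. A second technical feature bears on the male arm of the choice. The deposited normalization differed between libraries in a gene-specific way, and each library was placed on an axis set to 0 at the mean of the 24 h males and to 1 at the mean of the naive and 3 week males. Naive males lay between 0.74 and 1.07 and 3 week males between 0.66 and 0.94, while 24 h males lay between 0.04 and 0.34. The female groups had means of 0.21 (naive), 0.22 (24 h) and 0.29 (3 weeks), so the axis separated the male groups and hardly the female ones. Whether it follows from the animals or from the processing was not tested.

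All levels below are log2(normalized count + 1), so that a difference of 1 is a doubling, and errors are SDs over animals unless a standard error is named. The differences of 24 h females from naive and from 3 week females chose the genes, so they are given as descriptions, and no test is read from them.

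In the higher list the 24 h females exceeded naive females by a median of 0.29 over the 75 genes, a 1.22-fold difference, with a range of 0.21 to 1.31. They exceeded 3 week females by a median of 0.27, or 1.21-fold, with a range of 0.21 to 1.18. The 3 week and naive females lay close together. Their difference had a median of 0.00 over the list, was under 0.1 in size for 50 of 75 genes, and was above 0 for 40 and below 0 for 35. The smaller of the 2 differences was 0.5 or more for 4 genes and under 0.3 for 58, so most of the list consists of small differences. The last gene inside the list had a value of 0.210331 and the first outside it 0.210319, so the end of the list is not a step in the data.

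The spread within groups was large beside these differences. Over the higher list the SD within female groups had a median of 0.32, against 0.17 for all 5988 eligible genes. The 24 h difference was larger than this SD for 23 of the 75 genes, and the ratio of the 2 had a median of 0.80 and a range of 0.16 to 1.67. Males, whose spread the choice did not use, showed the same feature: the SD within male groups was above the eligible median of 0.15 for 72 of 75 genes. The list also held genes of lower abundance than the eligible genes, with a median mean normalized count of 253 against 938. For 15 genes the mean was between 50 and 100, and for 12 it was above 1000.

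**Figure D1:**
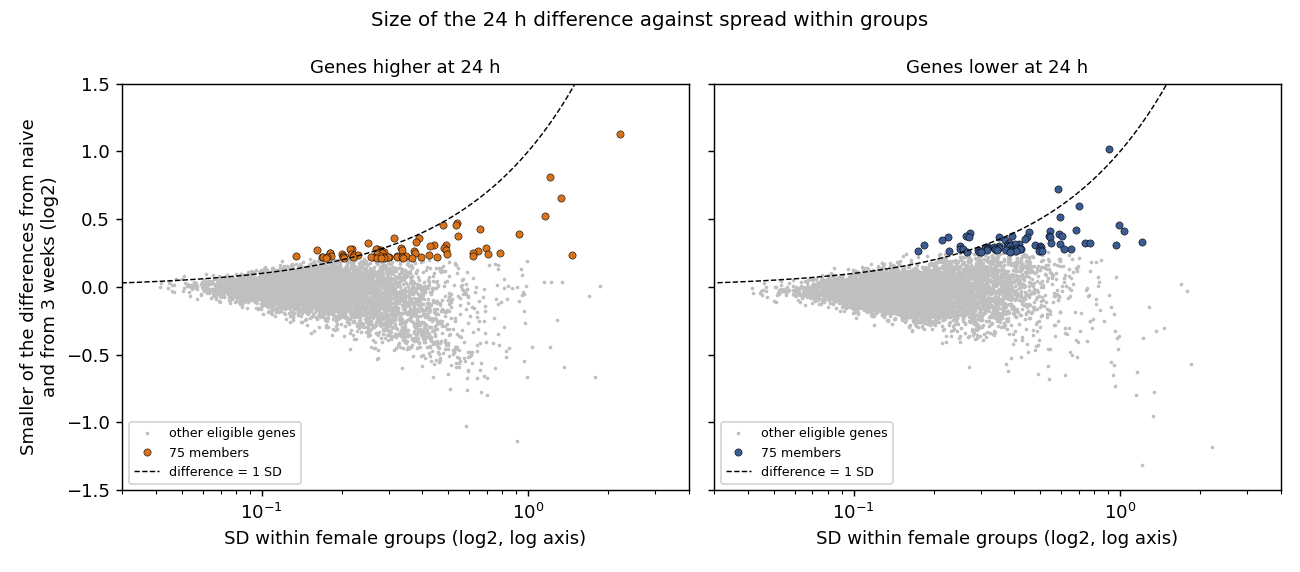
Each point is 1 of the 5988 eligible genes, with the SD within female groups (log2, log axis) on the x axis and the smaller of the differences of 24 h females from naive and from 3 week females on the y axis, signed so that members are positive. Coloured points are the 75 members of each list, and 23 of the higher list and 14 of the lower list lie above the dashed line at which the difference equals 1 SD.

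The member ranked first in the higher list, ENSMOCG00000006783, was present at very different levels in single animals of every group. Naive females ran from 1.46 to 8.05 with a median of 6.87, 24 h females from 3.87 to 8.13 with a median of 7.61, and 3 week females from 0.00 to 8.38 with a median of 7.36. The groups overlapped almost completely, and 0 of the 10 females at 24 h lay above every 3 week female. The means were 6.11 ± 2.25 (n = 10), 7.25 ± 1.30 (n = 10) and 6.06 ± 2.89 (n = 9), a difference of 1.13 from naive and 1.18 from 3 weeks. Single animals moved these values: without naive replicate 6 the first was 0.61 and without naive replicate 10 it was 0.74, and without 3 week replicate 6 the second was 0.43 and without 3 week replicate 2 it was 0.71. With group medians the differences were 0.74 and 0.25. Between 4.03 and 5.85 no library had a value, and the number of animals below this gap was 2 of 10 naive, 1 of 10 at 24 h and 2 of 9 at 3 weeks in females. In males it was 2 of 6 naive, 1 of 6 at 24 h and 3 of 5 at 3 weeks. The high mean of the 24 h females thus came with 1 low animal where each other female group had 2.

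ENSMOCG00000015746, ranked second, had the opposite form, with a few animals far above the rest. Naive females lay between 5.94 and 6.68 with a median of 6.30. In 24 h females the lowest, median and highest values were 6.35, 6.76 and 10.09, and in 3 week females they were 6.05, 6.53 and 10.01. Of the 10 females at 24 h, 3 had values of 10.07 or above and the other 7 lay between 6.35 and 6.99, so most of this group overlapped the naive range or lay just above it. The means were 6.33 ± 0.20, 7.64 ± 1.70 and 6.83 ± 1.21. High values of this kind occurred in 5 of the 46 animals, the others being 1 female and 1 male at 3 weeks, and no value lay between 7.25 and 10.01. With group medians in place of means the difference was 0.46 from naive and 0.24 from 3 weeks. The difference of means from 3 weeks was 0.81, and 0.54 without 24 h replicate 5 or without 24 h replicate 9.

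These forms were not typical of the list: 5 of its 75 members had an SD of 1 or more within females, against 15 of all 5988 eligible genes. The members whose 24 h difference was largest beside their own spread were picked out after their values were seen. ENSMOCG00000017092 had lowest, median and highest levels of 12.004, 12.16 and 12.45 in naive females, of 12.32, 12.48 and 12.76 in 24 h females, and of 12.001, 12.32 and 12.44 in 3 week females. All 10 females at 24 h lay above the naive median, and 5 of them above every naive female. Its means were 12.21 ± 0.14, 12.51 ± 0.17 and 12.24 ± 0.17, with a difference of 0.27 from 3 weeks that was 0.15 with group medians, while the 3 male groups had means of 12.30, 12.31 and 12.30. ENSMOCG00000016161 lay between 10.49 and 10.83 in naive females, between 10.65 and 11.16 in 24 h females and between 10.57 and 10.91 in 3 week females. Of its 10 females at 24 h, 7 exceeded every naive female and 5 every 3 week female, with means of 10.67 ± 0.10, 10.92 ± 0.17 and 10.69 ± 0.13. Male means for this gene were 10.75 (naive), 10.83 (24 h) and 10.84 (3 weeks), between the naive and the 24 h female means.

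In the lower list the 24 h females lay below naive females by more than they lay below 3 week females. The difference from naive had a median of -0.41, a level 1.33-fold lower, and ranged from -1.03 to -0.26. The difference from 3 weeks had a median of -0.31, or 1.24-fold lower, and ranged from -1.13 to -0.26. The 3 week mean was below the naive mean for 58 of the 75 genes and above it for 17. The median difference was -0.07, beside a median standard error of 0.17. Per animal, the median over the list of the level minus the naive mean was 0.00 ± 0.18 in naive and -0.07 ± 0.15 in 3 week females, with overlap. For these 58 genes the 3 week mean thus lay between the 24 h and the naive means, by amounts that were mostly small beside the spread. For the higher list the corresponding number was 40 of 75. The smaller of the 2 differences was 0.5 or more in size for 4 genes and under 0.3 for 36. The last gene inside had a value of 0.258527 and the first outside 0.257062.

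Spread and abundance followed the same form as in the higher list. The SD within females had a median of 0.39, and the 24 h difference was larger than it for 14 of 75 genes, with a median ratio of 0.80 and a range of 0.28 to 1.67. The SD within male groups was above the eligible median for 75 of 75 genes. Mean normalized counts had a median of 168, with 22 genes between 50 and 100 and 13 above 1000.

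ENSMOCG00000010555, ranked first in the lower list, had lowest, median and highest levels of 4.90, 5.94 and 7.40 in naive females, of 3.69, 4.96 and 6.93 at 24 h, and of 5.06, 6.25 and 7.46 at 3 weeks. Of the 10 females at 24 h, 5 lay below every naive female and 6 below every 3 week female, while the highest of them, at 6.93, lay among the upper values of both other groups. The means were 6.11 ± 0.88, 5.09 ± 0.98 and 6.22 ± 0.85, a 2.03-fold lower level than in naive and 2.19-fold lower than in 3 week females. The gene has a mean normalized count of 67.8, near the lower bound of the choice.

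ENSMOCG00000011306, ranked second, ran from 7.46 to 9.57 in naive females with a median of 8.30, from 6.37 to 7.86 in 24 h females with a median of 7.35, and from 6.69 to 8.91 in 3 week females with a median of 8.21. All 10 females at 24 h lay below the naive median and below the 3 week median, and 7 lay below every naive female. One 3 week female, at 6.69, was as low as the lowest 24 h animals. The means were 8.30 ± 0.61, 7.27 ± 0.44 and 7.99 ± 0.69, and the male means of 7.60 (naive), 7.52 (24 h) and 7.55 (3 weeks) lay between those of naive and 24 h females.

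**Figure D2:**
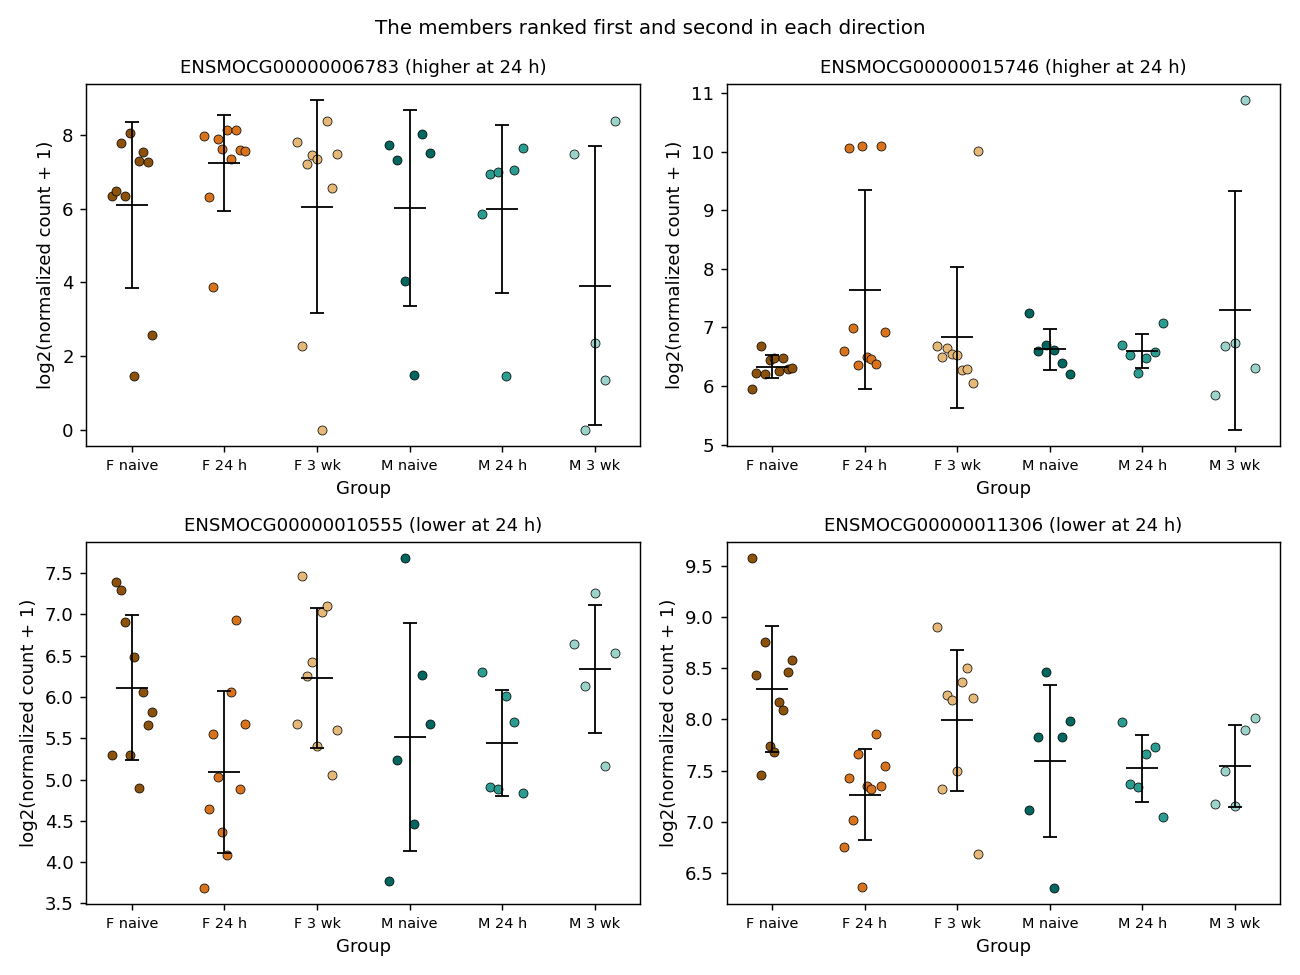
Each point is 1 animal, the y axis is log2(normalized count + 1), and bars give the mean ± SD of each group (F, female; M, male). ENSMOCG00000006783 shows animals below the gap from 4.03 to 5.85 in all 6 groups, ENSMOCG00000015746 shows 5 animals at 10.01 or above, and the females at 24 h of ENSMOCG00000010555 and ENSMOCG00000011306 are shifted downwards but overlap the other groups.

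The lower members with the largest difference beside their own spread, again picked out after their values were seen, were ENSMOCG00000011014 and ENSMOCG00000011453. For ENSMOCG00000011014, naive females ran from 9.27 to 9.87, 24 h females from 8.84 to 9.48 and 3 week females from 9.28 to 9.68, and 7 of the 10 females at 24 h lay below every animal of each other female group. Its means were 9.53 ± 0.19, 9.18 ± 0.22 and 9.48 ± 0.13, against 9.33, 9.29 and 9.30 in the male groups. For ENSMOCG00000011453, naive females ran from 11.10 to 11.98, 24 h females from 10.71 to 11.47 and 3 week females from 11.07 to 11.68, and 5 of the 10 females at 24 h lay below all animals of each other group. Its means were 11.49 ± 0.24, 11.10 ± 0.23 and 11.48 ± 0.20, and the male means of 11.45, 11.48 and 11.51 were close to those of naive and 3 week females.

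No member of either list separated the groups fully. The number of genes whose 10 females at 24 h all lay beyond all naive females was 0 of 75 in each list, and 0 beyond all 3 week females, against 0% of the 5988 eligible genes in each case. All 10 females at 24 h lay beyond both other groups' medians for 2 genes of the higher list and for 8 of the lower list. The choice favours such genes and no share over the eligible genes is given here, so nothing is read from these counts. Group medians pointed the same way as the means for 74 and 75 genes, respectively.

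Per animal, the lists can be followed by the median over their 75 genes of the level minus the naive female mean. For the higher list this value was between -0.20 and 0.11 in naive females, between -0.13 and 0.20 in 3 week females, and 0.07, 0.28 and 0.46 (lowest, median and highest) at 24 h. Of the 10 females at 24 h, 9 lay above every naive and every 3 week female, a separation that the choice of genes builds in. For the lower list the naive females lay between -0.23 and 0.31, the 3 week females between -0.26 and 0.15, and the 24 h females at -0.61, -0.40 and -0.08, with 8 of 10 below every naive and every 3 week female. The same animal, 24 h female replicate 8, was nearest to the naive level in both lists, with 33 higher and 25 lower genes past the midpoint between the naive and 24 h means, where the group's medians were 51 and 51.5. It also had the highest axis position of its group, 0.39, and the part of that position in its values was not tested.

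**Figure D3:**
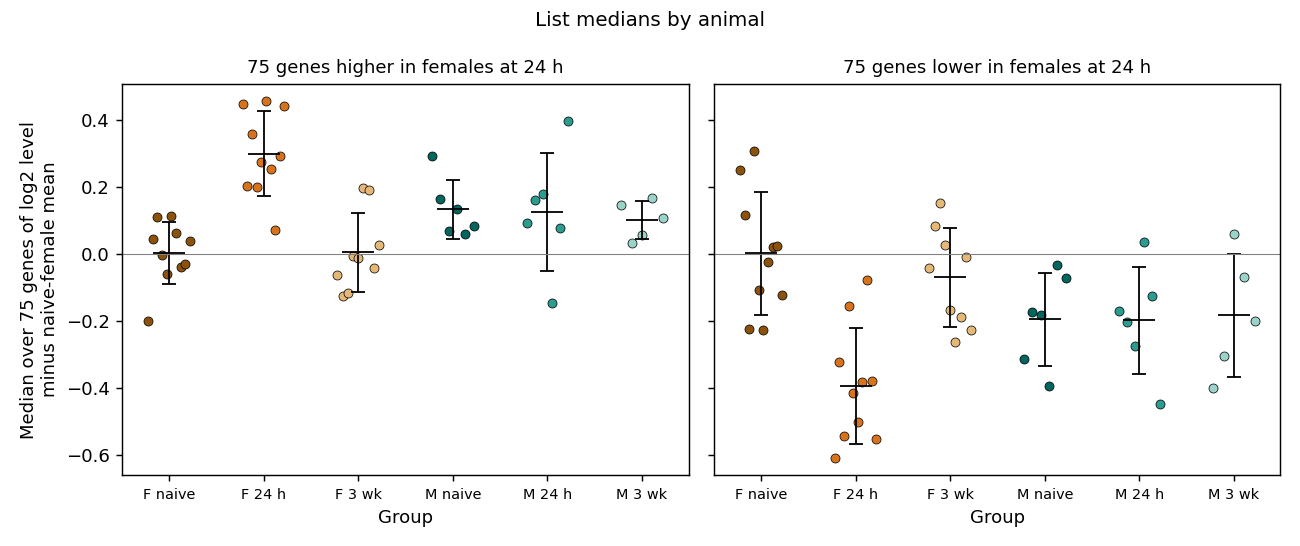
Each point is 1 animal, and the y axis is the median over the 75 genes of a list of the log2 level minus the naive female mean, with bars for the mean ± SD of each group (F, female; M, male). Females at 24 h average 0.30 ± 0.13 in the higher list and -0.39 ± 0.17 in the lower list, and the male groups lie between them and the naive females with wide overlap. The choice of genes favours this order.

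On average, males of all groups lay between the naive and the 24 h females, and nothing is read from this order. The choice set the 24 h females apart from both other female groups, so a group near the overall female level tends to lie between. Averaged over the 3 conditions, the male minus female difference had a median of 0.008 over the higher list and -0.015 over the lower list. For the higher list the male groups averaged 0.13 ± 0.09 (naive, n = 6), 0.13 ± 0.18 (24 h, n = 6) and 0.10 ± 0.06 (3 weeks, n = 5) above the naive female level, against 0.30 ± 0.13 in 24 h females. For the lower list they averaged -0.19 ± 0.14, -0.20 ± 0.16 and -0.18 ± 0.18, against -0.39 ± 0.17. By gene, the mean of the naive males lay between the naive and the 24 h female means for 47 higher and 55 lower members. These counts are given without their share over the eligible genes, and nothing is read from them. The 24 h males were spread more widely in the higher list than the other male groups. Among them, replicate 6 had values of 0.40 in the higher and -0.45 in the lower list, within the range of 24 h females, whereas replicate 4 had values of -0.14 and 0.04, near naive females. The small male difference that entered the choice is thus a difference of means over animals that did not all lie together.

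**Figure D4:**
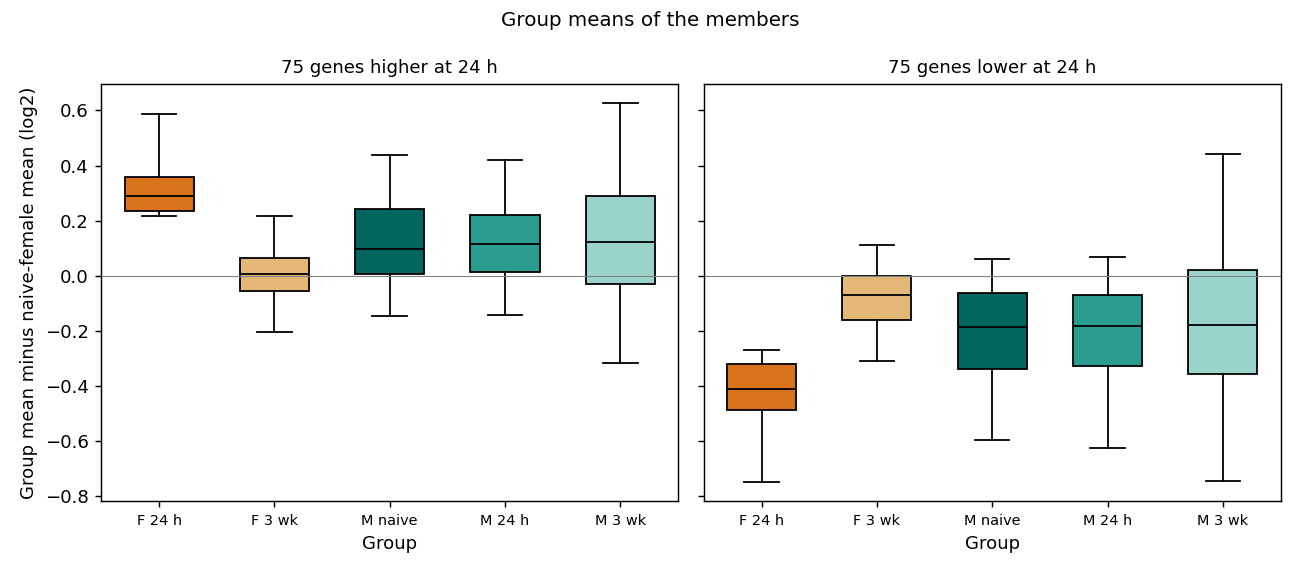
Boxes show, for the 75 members of each list, the group mean minus the naive female mean on the log2 scale (centre line, median; box, quartiles; whiskers, percentiles 5 to 95; F, female; M, male). Median values for males lie between 0.10 and 0.12 in the higher list and between -0.19 and -0.18 in the lower list, and the boxes are widest for males at 3 weeks.

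The fit across all 14455 genes with a mean of at least 10, which holds 75 of 75 members of each list, gave the following calls at an adjusted p under 0.05 (limma, Benjamini-Hochberg). The female contrasts and their comparison with males are built from values that chose the members, so nothing is read from their counts, which the choice largely fixes. Between 24 h and naive females 1 of 75 higher members was called as higher, against 0.0346% of all genes tested, and 1 of 75 lower members as lower, against 0.0692%. These were ENSMOCG00000016161, described above, and ENSMOCG00000006294, whose means were 13.08 ± 0.22 in naive, 12.62 ± 0.19 in 24 h and 12.97 ± 0.23 in 3 week females. Each of these calls was lost in 16 of 31 other fits. Between 24 h and 3 week females limma called 0 of 75 in each list and 0% of all genes, with 36 and 32 members at an unadjusted p under 0.05, against 8.63% of all genes. The difference between the female and the male 24 h changes was called by limma for 0 members of each list, against 0.0484% of all genes, with 12 and 15 members at an unadjusted p under 0.05, against 9.03%. It is no separate test of a difference between the sexes.

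The male 24 h difference was also estimated with a term for the normalization in the fit, since the 2 male groups lie at opposite ends of the axis. As chosen, it was between -0.10 and 0.10 for every member, with a median standard error of 0.18 in the higher and 0.22 in the lower list, so each single value is known less exactly than the bound of 0.1. The pattern of a library is its membership in 1 of 2 clusters of the same gene-specific factors. It does not follow the axis strictly in females: those of the second pattern lay at 0.24, 0.29, 0.39 and 0.52, and the others reached 0.37. With the pattern as a term in the fit, 31 higher and 17 lower members stayed under 0.1 in size. The median standard error was then 0.24 and 0.30. Members were chosen for a value under the bound, so a term that adds error moves some of them past it. Of the higher members 11 then lay above 0.1 and 33 below -0.1, and of the lower members 49 lay above and 9 below. In males the pattern coincides with the groups, being that of 6 of 6 naive, 0 of 6 paired for 24 h and 5 of 5 paired for 3 weeks. The term is therefore estimated from the females alone, of which 4 had the second pattern (1 naive, 1 at 24 h and 2 at 3 weeks), and the one at 24 h was replicate 8, the animal nearest to the naive level in both lists. Between naive and 24 h males the pattern and the pairing cannot be told apart. With the axis position as a term, 13 and 17 members stayed under 0.1, and the median standard error grew to 0.35 and 0.43. The female groups lay at similar mean positions. The lists were also chosen again under 7 alternatives, which include quantile normalization and libraries rescaled to the same total. These kept 34 to 63 higher and 21 to 70 lower genes. Both scalings act on a library as a whole and not gene by gene. Whether the same genes would be chosen under another gene-specific normalization of the males was not tested.

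The bound on males also set which genes could enter. Of the genes with a mean of at least 50, 254 reached the value of the last higher member in females. Males differed in the same direction by 0.1 or more for 112 of them, in the opposite direction for 66 and by less for 76, of which 1 was left out for its correlation with Avpr1a. For the lower direction 265 genes reached the value of the last member, with 131 in the same direction in males, 58 in the opposite direction and 76 in between, again with 1 left out. The lists therefore hold 75 of 254 and 75 of 265 genes with a female 24 h difference of this size.

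Males at 3 weeks took no part in the choice and allow a test, although the naive males entered it through the bound on the male difference. ENSMOCG00000006783 had values of 0.00, 1.36, 2.35, 7.49 and 8.39 in the 5 males at 3 weeks, against 1.49 to 8.03 (median 7.42) in naive males. The groups overlapped over nearly the whole range, and the difference was -2.10 (SE 1.48, limma adjusted p = 0.999), the largest in size of either list. ENSMOCG00000015746 had values of 5.85, 6.31, 6.68, 6.73 and 10.88, and ENSMOCG00000010555 had a difference of 0.83 (SE 0.55, limma adjusted p = 0.999). Between 3 week and naive males limma called 0 of 75 members in each list, and 0% of all genes tested. At an unadjusted p under 0.05 it held 1 member of each list, against 2.38% of all genes. The difference had a median of 0.03 over the higher list, above 0 for 42 genes and below for 33, and of -0.02 over the lower list, above 0 for 34 and below for 41, against 0.00 over all genes tested. The standard errors of this male difference had medians of 0.19 and 0.23, against median female 24 h differences from naive of 0.29 and -0.41. They were smaller for abundant members: the male difference was 0.09 (SE 0.07) for ENSMOCG00000016161 and -0.01 (SE 0.10) for ENSMOCG00000017092.

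Between 3 week and 24 h males limma also called 0 of 75 members in each list, against 0.0692% of all genes, with a smallest adjusted p of 0.467 in the higher and 0.411 in the lower list. At an unadjusted p under 0.05 it held 2 and 1 members, against 9.34% of all genes. Medians of this difference were 0.04 and 0.01. The bound had removed genes in which 24 h males stood apart from naive males. For the members these counts are therefore in part set by the choice and largely repeat the comparison with naive males. On the normalization axis, 24 h males lay between 0.04 and 0.34 and 3 week males between 0.66 and 0.94. In this contrast the time with a partner and the normalization cannot be told apart, for members or for all genes. Both comparisons of 3 week males kept a count of 0 in each list under the 11 alternative settings and with each of the 11 libraries left out.

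Averaged over the 3 conditions, males and females differed for some members. Limma called 6 of 75 members of the higher list (8.0%) and 10 of 75 of the lower list (13.3%), against 19.6% of all genes tested, so both shares were below the background. The members had wider spread within groups and lower counts than the eligible genes. No share over genes matched for these was taken, so the lower shares are not read as a feature of the members. Of the 6, 5 were higher in males and 1 lower, and of the 10, 3 were higher and 7 lower, against 10.3% of all genes tested called higher and 9.37% called lower. With libraries rescaled to the same total the shares of all genes were 13.1% higher and 6.66% lower, and 9 members of each list were called. Leaving out male 3 week replicate 4 or male 24 h replicate 4 left 2 and 3 calls in the higher list, and leaving out male 3 week replicate 1 left 6 in the lower list. The share of all genes is given below over all single libraries left out and not for each fit, so nothing is read from these counts. The following members had the largest called difference of their list and direction and were picked out after their values were seen. In the higher list, ENSMOCG00000018460 had means of 5.69 ± 0.81, 6.01 ± 0.72 and 5.77 ± 0.56 in naive, 24 h and 3 week females, against 6.49 ± 0.31, 6.44 ± 0.48 and 6.31 ± 1.24 in males. Its difference was 0.59 (SE 0.21, limma adjusted p = 0.0446), with wide overlap between animals, and the call was lost in 28 of 55 other fits. ENSMOCG00000018325 was lower in males by -0.27 (SE 0.06, limma adjusted p = 0.00291), with female means of 12.47, 12.70 and 12.49 and male means of 12.34, 12.38 and 12.14.

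In the lower list, ENSMOCG00000019324 had female means of 6.52 ± 0.75, 6.20 ± 0.81 and 6.62 ± 0.63 and male means of 6.89 ± 0.48, 6.87 ± 0.70 and 7.19 ± 0.22. Its difference of 0.54 (SE 0.20, limma adjusted p = 0.048) lost its call in 32 of 56 other fits. ENSMOCG00000004315 had female means of 7.49 ± 0.71, 6.88 ± 0.53 and 7.19 ± 0.51, all above the male means of 6.69 ± 0.61, 6.65 ± 0.57 and 6.36 ± 0.89. Its difference was -0.62 (SE 0.19, limma adjusted p = 0.0151), and this call and that of ENSMOCG00000018325 were each lost in 1 of 56 other fits. The sexes also differ in axis position, and with the position as a term 0 members of either list were called, against 0.083% of all genes in that fit.

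Members were next compared with each other by Pearson's r across animals after removal of group means, which leaves out the differences between groups that chose them. The points share library depth and normalization, and r is given as a description. In 29 females the median r over all pairs was 0.07 in the higher list, 0.14 in the lower list and -0.09 between the lists, against 0.00 over all pairs of the 5988 eligible genes. In 17 males, which are other animals, the medians were 0.10, 0.18 and -0.11. The lists are thus mostly made of genes that varied separately from animal to animal, with a few tighter sets. Of the 2775 pairs in each list, 37 in the higher list (1.33%) and 36 in the lower list (1.30%) had r over 0.7 in females, against 0.875% of eligible pairs. In males the same pairs had a median r of 0.79, with a range of 0.02 to 0.93, and of 0.67, with a range of -0.02 to 0.93.

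Joining pairs with r over 0.7 in females, after the values were seen, gave 3 sets of 8 or more genes. The tightest, 9 members of the higher list, had a median r of 0.79 in females and 0.78 in males, and mean normalized counts from 55.6 to 443. Its mean level varied within every female group by more than it differed between them, at 0.00 ± 0.76 in naive, 0.43 ± 0.66 in 24 h and 0.01 ± 0.58 in 3 week females, with 24 h animals from -0.43 to 1.42. Males stood at -0.03, -0.02 and 0.12 in the naive, 24 h and 3 week groups, near the naive female level. These 9 genes, which include the members ranked 3 and 4, are thus not separate observations of the 24 h females. A second set of 8 higher members was more abundant, with mean counts from 253 to 12765, and held both ENSMOCG00000017092 and ENSMOCG00000016161. Its levels were 0.00 ± 0.15, 0.29 ± 0.20 and 0.03 ± 0.18 in the female groups and 0.12, 0.11 and 0.16 in naive, 24 h and 3 week males. The set in the lower list had 23 members with a median r of 0.54 in females and 0.53 in males. It stood at 0.00 ± 0.34 in naive females, -0.45 ± 0.29 at 24 h and -0.13 ± 0.35 at 3 weeks, and the male groups stood at -0.31, -0.31 and -0.41, close to the 24 h females.

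**Figure D5:**
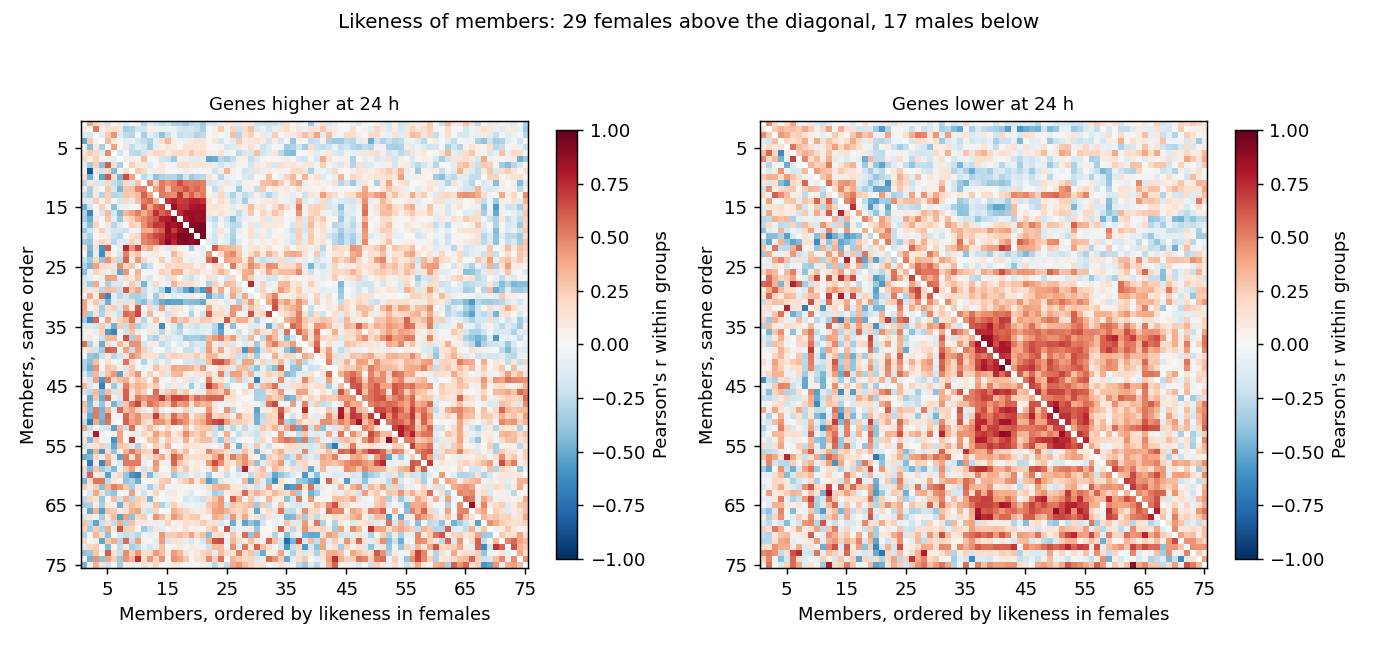
Colour gives Pearson's r between members of a list across animals after removal of group means, for 29 females above the diagonal and 17 males below it. Both axes list the 75 members in the order given by clustering in females. The dark block of the higher list contains the set of 9 members (median r of 0.79 in females), and the broad block of the lower list contains most of the set of 23 members (median r of 0.54).

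Likeness to Avpr1a was bounded by the choice in females, where r ran from -0.50 to 0.67 in the higher list and from -0.69 to 0.70 in the lower list. In males, which the bound did not use, r with Avpr1a ran from -0.62 to 0.65 with a median of 0.07 for the higher list, and from -0.78 to 0.75 with a median of -0.09 for the lower list, against 0.00 for all eligible genes. ENSMOCG00000006783, ENSMOCG00000015746, ENSMOCG00000010555 and ENSMOCG00000011306 had r of -0.02, 0.06, -0.14 and 0.19 in females and 0.13, 0.05, -0.38 and -0.01 in males.

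Membership moved with single animals. When each of the 29 females was left out and the lists were chosen again, between 53 and 69 of the 75 higher genes were kept (median 64), the fewest without 24 h replicate 3. Between 45 and 73 of the lower genes were kept (median 63), the fewest without 3 week replicate 6. Every choice kept 26 higher and 19 lower genes. All 10 of the top 10 higher genes and 7 of the top 10 lower genes were kept each time. Their values lie furthest from the end of the list, so being kept does not show that the values themselves are steady.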

How the data were processed

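RNA from nucleus accumbens punches of 46 animals was sequenced, and the deposited table holds log2 values per gene and library, which the authors computed. From the values they are log2(normalized count + 1). The submitters' processing notes list Salmon 0.12 and DESeq2 (no version), with fastp 0.14.1, bcl2fastq 2.20.0.422 and FastQC 0.11.7, without roles or order. Genome build and annotation: not given in the sources used here. Spike-in RNA was added, per the labels' protocols, and was not used here. Whole reads could not be recovered for nearly all genes: the share of values of up to 3 reads within 0.1 of a whole number was 51.2% to 91.8% per library (median 85.0%), so no count model was fitted. Depth was estimated from the value of 1 read. The normalization axis came from gene-specific factors of 2729 genes, which also split the libraries into clusters of 31 and 15.

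Groups were taken from the titles, and p-values measure the spread between animals. The tests were limma 3.58.1 in R 4.3.3 (trend and robust options), with 6 group means in 1 fit and a minimum mean of 10, which left 14455 genes, pseudocount 1, Benjamini-Hochberg adjustment per contrast over all genes and a threshold of 0.05, checked on simulated data. Other steps used Python 3.11.15, numpy 2.4.6 and pandas 2.3.3. The genes and lists were chosen with earlier results of these data known. Because no identifier matched a symbol, the 2 highest-ranked identifiers per direction were named by rule, and others are marked where they were picked after their values were seen. The gene and cell type lists laid down for symbols could not be used. Alternatives were other pseudocounts, filters, scalings, weights, fits of fewer groups, a replicate block, pattern or position terms, and each library left out. Same-numbered libraries of the same sex were checked for deviations in common. Over the 6 pairs of groups, at most 2 number pairs in any had r over 0.1, with a highest r of 0.30. The numbers were therefore used only to name libraries, and same-numbered females and males were not compared. No libraries were duplicates (smallest SD between any pair 0.161).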

Additional observations from a re-analysis of the deposited data

Results flagged for a closer look

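The named members and the list medians per animal gave 60 groups that were examined for a library apart from the rest. Of these, 5 held one by Dixon's criterion at its 95% level, which chance meets in about 1 in 20 groups. All 5 were groups of named members. ENSMOCG00000006783 had its lowest 24 h female, replicate 3, at 3.87 with the nearest other at 6.32, and its lowest 24 h male, replicate 4, at 1.47 with the nearest at 5.85. ENSMOCG00000015746 had its highest 3 week female, replicate 9, at 10.01 with the nearest at 6.68, and its highest 3 week male, replicate 4, at 10.88 with the nearest at 6.73. ENSMOCG00000011453 had its lowest 24 h male, replicate 2, at 11.11 with the nearest at 11.46. No explanation of these values was tested.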

How the results depend on the processing

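The direction of the list medians is fixed by the choice of genes. Over the alternatives run, the higher list stayed between 0.26 and 0.32 above naive and between 0.26 and 0.31 above 3 week females, and the lower list between -0.44 and -0.36 and between -0.36 and -0.29. Counts were less steady, and the cause was not tested. For 24 h against naive females, a contrast that chose the members, limma called 1 and 1 as reported, with 0.104% of all genes. The counts were 0 and 0 (0% of all genes) without a filter, when only those groups were fitted and with the axis position as a term, 2 and 4 (0.306%) with a mean of at least 100, and 2 and 4 (0.235%) with array weights. The lower count was 3 (0.166%) with libraries rescaled to the same total and 3 (0.166%) with the pattern as a term. Leaving out 1 library gave 0 to 10 higher and 0 to 18 lower calls, the most in each without 24 h replicate 8, where the share of all genes also grew, to 3.29%. For males against females (19.6% of all genes as reported) the position term gave 0 and 0 (0.083%), array weights gave 16 in the lower list (26.4%), and leaving out 1 library gave 2 to 9 and 6 to 13 (15.5% of all genes or more). With the replicate number as a block, although the labels give no pairing by number, 24 h against naive females gave 2 and 4 calls (0.304%). In that fit males against females gave 5 in the lower list (16.3%). Chosen again with a male bound of 0.2, 37 higher and 36 lower genes were kept, with group medians 34 and 21, without the 4 females that clustered with the naive and 3 week males 49 higher genes, and without 1 female 53 to 69 and 45 to 73. Quantile normalization and libraries rescaled to the same total were also among the 7 alternative choices, which kept 34 to 63 higher and 21 to 70 lower genes. Members with a male 24 h difference under 0.1 numbered 31 and 17 with the pattern and 13 and 17 with the position as a term. A fit of only the groups compared was not run for males against females, since all groups enter it. Depth was 15.3 M to 37.8 M reads, and its part in the spread of the less abundant members was not tested.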
